A study of Homo sapiens with 4 samples.

Results

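The tubulin isotypes described here are the 10 alpha and beta tubulin genes TUBA1A, TUBA1B, TUBA1C, TUBA4A, TUBB, TUBB2A, TUBB2B, TUBB3, TUBB4B and TUBB6, chosen by gene symbol, with all 14 probes that the platform annotation gives them. They stand among 18473 named genes on the arrays. The cells were HEK293, a cell line derived from human embryonic kidney, and they received 100 pmol of control siRNA or of siRNA against hCdc73, the human CDC73 gene, whose product parafibromin is a subunit of the PAF1 complex of transcribing RNA polymerase II. After 24 hours the cells were replated, either sparsely on dishes of 100 mm or to confluence on dishes of 35 mm, and RNA was taken after a further 24 hours. The 4 groups are therefore control siRNA sparse, hCdc73 siRNA sparse, control siRNA confluent and hCdc73 siRNA confluent. Every group had 1 array, so no value below has a replicate error, and whether each dish had its own transfection is not stated in the labels.

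Microtubules are polymers of alpha-beta tubulin dimers, and vertebrates encode each subunit in several genes, called isotypes, whose proteins differ mostly in their acidic C-terminal tails. Some isotypes are made in nearly every cell, while others are known mainly from neurons or from cilia. Cells also adjust tubulin mRNA to the amount of free dimer, since a factor that binds the first residues of nascent tubulin triggers decay of the mRNA being translated. New tubulin is folded by prefoldin, the chaperonin CCT and a set of tubulin cofactors before it can join a microtubule.

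Total signal per array lay between 22948071 (hCdc73 siRNA, confluent) and 28273404 (control siRNA, confluent), and 13680 to 14899 probes per array were detected. A probe counted as detected at a detection p under 0.01, the share of 453 olfactory receptor probes that were at least as bright. The only probe for CDC73 stayed below the detection limit throughout, with signals of 72.3 to 98.3, so the knockdown could not be checked and the siRNA groups rest on the labels. Of the neuronal markers, for which this line is known, 5 of 12 were detected on at least 1 array. On all 4 arrays 3 were detected, among them the neurofilament gene NEFL at low signals of 157 to 206. Of 9 kidney epithelial markers on the array 3 were detected, and of 9 fibroblast and haematopoietic markers 3. Among all 18473 named genes 10763 were detected on at least 1 array, a larger share than in any of these marker lists. In RNA from whole dishes, fewer cells expressing a gene and less RNA of it per cell cannot be told apart.

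Of the 10 tubulin genes 9 were detected on all 4 arrays, and 13 of the 14 probes were. The exception was TUBA4A, an alpha tubulin that is made without the usual C-terminal tyrosine, whose only probe had signals of 110.0 (control siRNA) and 102 (hCdc73 siRNA) when sparse, and of 95.5 and 70.0 when confluent. None of these passed the detection limit, so no difference is given for it. TUBA1A, TUBB, TUBB2A and TUBB6 had 2 probes each, and a gene took the value of its brighter probe unless stated. Signals ranged from 197 for the second TUBB6 probe to 41627 for TUBA1B, and since probes bind with different strength, levels are compared between arrays only. Isotype mRNAs are alike in sequence, and whether a probe also bound another isotype was not tested, since probe sequences were not used here.

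**Figure D1:**
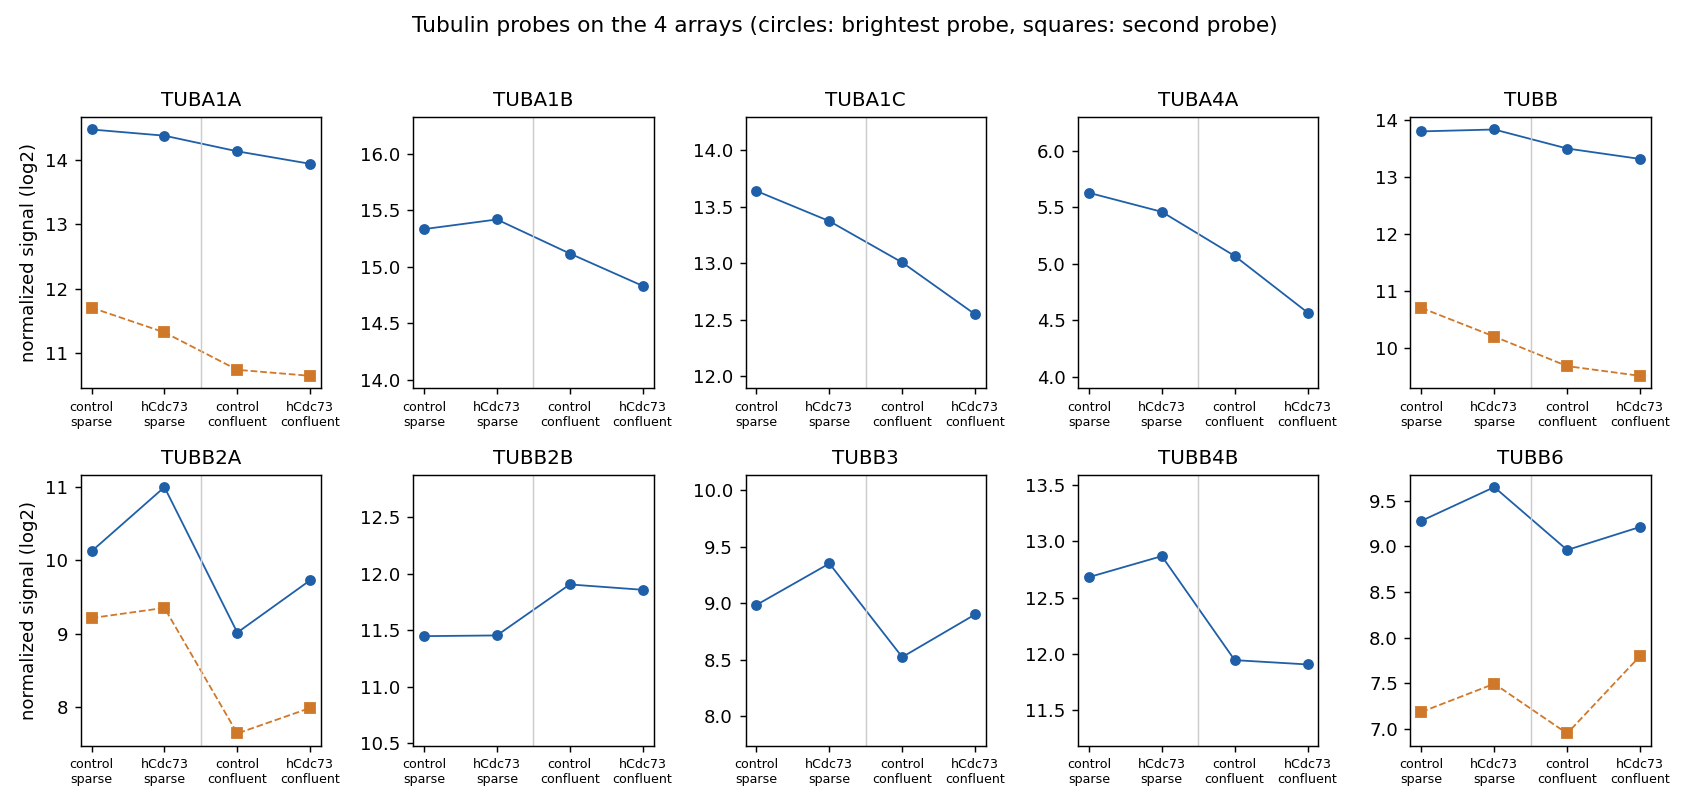
Normalized signal (log2, y axis) of every probe of the 10 tubulin genes on the 4 arrays (x axis). Circles are the brighter or only probe of a gene and squares its second probe, joined by lines to guide the eye. The y axes span different levels, and TUBA4A was not detected on any array. By the circles, both sparse arrays lie above both confluent arrays in 8 of the 9 detected genes, and TUBB2B shows the opposite order. TUBA4A, below the detection limit, is left out of this count. The second TUBB6 probe follows neither.

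By their brighter probes most tubulin genes were lower in confluent cells. In 8 of the 9 genes both sparse arrays were above both confluent arrays, an order that 23.4% of the 9047 genes detected on all 4 arrays also showed. The remaining gene, TUBB2B, had both confluent arrays above both sparse arrays, as did 21.2% of all genes. The gap between the sparse and the confluent pair was small in several of them, at 0.24 for TUBA1A, 0.22 for TUBA1B, 0.084 for TUBB3 and 0.067 for TUBB6, and the second TUBB6 probe did not keep the order. By that order the 8 genes were necessarily lower in confluent cells within each siRNA, a weaker condition that 32.6% of all genes met. Of the 9 genes 5 were lowest on the array of confluent cells with hCdc73 siRNA (31.1%). No brighter probe had both hCdc73 siRNA arrays above or below both control arrays (16.2% and 16.3% of all genes), while the second TUBB6 probe had them above. A gene whose arrays split fully by density cannot also split fully by siRNA. For these 9 genes the absence was thus fixed by the density order and is not a separate siRNA result. The median log2 difference of confluent against sparse cells over the 9 genes was -0.34 with control siRNA and -0.52 with hCdc73 siRNA, where the medians of all measured genes were 0.022 and -0.022. With each siRNA 8 of the 9 were lower by any amount and 1 higher, which again follows from the order of the arrays. Of all genes 48% (control) and 51.8% (hCdc73) were lower and 51.9% and 48.1% higher. Scaling the arrays to equal medians in place of quantile normalization moved the medians of all genes to 0.22 and -0.25, and the tubulin medians of -0.31 and -0.74 stayed below them.

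The size limit used to call a difference was 1.5-fold, or 0.585 on the log2 scale. By the brighter probes and with control siRNA, 3 of the 9 tubulin genes were at least 1.5-fold lower in confluent cells and none was higher, against a background of 9.54% lower and 13.3% higher among 10244 measured genes. With hCdc73 siRNA 4 were lower and none higher, against 14.9% and 14.4% of 10509 genes. The 3 genes past the limit with both siRNAs were TUBA1C, TUBB2A and TUBB4B, and 3.27% of genes detected on all arrays met that condition. At 2-fold only TUBB2A was lower with both siRNAs (0.486% of genes). With median scaling, all genes past 1.5-fold split into 2419 higher and 494 lower with control siRNA, in place of 1367 and 977, and into 866 and 2787 with hCdc73 siRNA, in place of 1515 and 1567.

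Without replicates, measurement spread was gauged from how far 2 probes for the same gene differed, over 1641 genes. This gave an SD per probe of 0.25 for the siRNA difference in sparse cells, 0.32 for that in confluent cells, and 0.28 (control) and 0.32 (hCdc73) for the density differences. Both probes read the same RNA on the same arrays. Variation that they share, such as that between dishes or transfections, is therefore not in this SD. An additive fit of siRNA and density over all 4 arrays was also made with limma across 10763 genes. With 1 residual degree of freedom it gave all genes one common SD of 0.28, so its p-values rank genes by the size of the effect and rest on the assumption that all genes vary alike. The residual of this fit is how far the siRNA effect differs between the densities, which thus counts as error. No replicate dish enters its SE or p-values.

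TUBB2A, a beta tubulin of class II, differed most between the arrays. Its brighter probe had normalized log2 levels of 10.12 (control) and 10.99 (hCdc73) in sparse cells and of 9.02 and 9.73 in confluent cells, from signals of 1184, 2164, 692 and 727. The array of hCdc73 siRNA sparse cells was highest and that of control siRNA confluent cells lowest, a range of 1.98 that 87 of 9047 genes exceeded. In confluent cells TUBB2A was 2.15-fold lower with control siRNA and 2.41-fold lower with hCdc73 siRNA. Only 114 of 10244 and 161 of 10509 measured genes were at least as low. In the additive fit TUBB2A fell by 1.19 with confluence on the log2 scale (SE 0.28, limma adjusted p = 0.00123). TUBB2A and TUBB4B, both lower, were the 2 of 9 tubulin genes called for density, where 3.1% of all genes were called lower and 4.99% higher. Without a detection filter limma called no gene of any kind for density, and the adjusted p of TUBB2A was 0.106.

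The second TUBB2A probe had a density difference in the same direction and of larger size. Its levels were 9.21 (control) and 9.35 (hCdc73) when sparse and 7.64 and 7.99 when confluent, again without overlap between the densities. Confluent cells were 2.97-fold lower with control siRNA and 2.57-fold lower with hCdc73 siRNA by this probe.

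With hCdc73 siRNA, the brighter TUBB2A probe was 1.83-fold higher in sparse cells and 1.64-fold higher in confluent cells. By the brighter probes no other tubulin gene passed 1.5-fold between the siRNAs, and the second TUBB6 probe was 1.80-fold higher in confluent cells. Over the genes detected on all arrays, 2.11% passed that limit upwards in sparse and in confluent cells alike. The second probe had the same sign but smaller values, at 0.14 in sparse and 0.35 in confluent cells on the log2 scale, both within 2 probe SDs. The size in confluent cells also turned on the scaling. The signals themselves stood in a ratio of 1.05, and the log2 difference was 0.23 with median scaling, where the median of all genes was -0.40, so that TUBB2A lay 0.63 above that median. In the additive fit the siRNA effect on TUBB2A was 0.79 (SE 0.28, limma adjusted p = 0.0896) and did not pass the limit of 0.05.

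TUBB4B, a widely made beta tubulin that is also known from cilia, was the other gene called for density. Its single probe had levels of 12.68 (control) and 12.87 (hCdc73) in sparse cells and of 11.95 and 11.91 in confluent cells. The arrays formed a high pair and a low pair, and the gap between the pairs was 0.74, against 0.19 and 0.038 within them. Confluent cells were 1.66-fold lower with control siRNA and 1.94-fold lower with hCdc73 siRNA. In the additive fit TUBB4B fell by 0.85 with confluence (SE 0.28, limma adjusted p = 0.0377), but the adjusted p was 0.158 with median scaling.

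The alpha tubulins were highest in sparse cells and lowest in confluent cells with hCdc73 siRNA. TUBA1C had levels of 13.64 and 13.37 in sparse cells and of 13.01 and 12.55 in confluent cells, which made it 1.55-fold lower with confluence under control siRNA and 1.77-fold lower under hCdc73 siRNA. Its density effect of -0.73 (SE 0.28) had a limma adjusted p of 0.0877, which was 0.0284 when the offset was 50, 0.0289 in the authors' log2 table and 0.0103 where background was left in. TUBA1B, a widely made alpha tubulin with the brightest tubulin probe, had levels of 15.33 and 15.42 in sparse cells and of 15.12 and 14.83 in confluent cells. Its density difference was -0.22 with control siRNA and -0.59 with hCdc73 siRNA, the latter just past 1.5-fold.

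TUBA1A, an alpha tubulin known for its part in brain development, had log2 density differences of -0.34 with control siRNA and -0.44 with hCdc73 siRNA by its brighter probe, and of -0.97 and -0.67 by its second probe. TUBB, the widely made class I beta tubulin, had the same pattern, with -0.30 and -0.52 by the brighter probe and -1.02 and -0.69 by the second. Both probes of both genes thus had both sparse arrays above both confluent ones, and they differed in size, so that TUBB was called for density when its second probe stood for it. The brighter probes were at signals of 14640 to 23095 for TUBA1A and of 8788 to 14577 for TUBB, and the second ones at 1338 to 3611 and at 634 to 1749. Among 88 genes with 2 detected probes whose brighter one averaged over 10000, the second probe had the larger difference in 58 (control siRNA) and 56 (hCdc73 siRNA) for density. The share of this in the tubulin values was not tested.

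TUBB3, the class III beta tubulin used as a marker of neurons, and TUBB6, the class V beta tubulin, had the same direction as TUBB2A in all 4 comparisons by their brighter probes. These 3 genes were the ones higher with hCdc73 siRNA at both densities (28.8% of genes detected on all arrays). TUBB3 had levels of 8.98 and 9.35 in sparse cells and of 8.52 and 8.90 in confluent cells. It was higher with hCdc73 siRNA by 0.37 in sparse and 0.38 in confluent cells, and lower with confluence by 0.46 and 0.45, each under 1.5-fold and within 2 probe SDs. The array pairs came close, as sparse cells with control siRNA and confluent cells with hCdc73 siRNA were only 0.084 apart. Summed signals of the 12 neuronal markers were 1305 (control) and 1338 (hCdc73) when sparse and 1450 and 1413 when confluent, with 7 of the 12 not detected on any array. The measured neuronal markers had median siRNA differences of 0.50 in sparse cells (3 of 4 higher) and 0.47 in confluent cells (3 of 5 higher), the same direction as TUBB3. Over all measured genes 53.9% and 49.7% were higher. For density their medians were 0.078 with control siRNA and 0.60 with hCdc73 siRNA, the opposite direction to TUBB3. With each siRNA 3 of 4 were higher, where 51.9% (control) and 48.1% (hCdc73) of all genes were. The part of these markers in the TUBB3 values was not tested.

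The brighter TUBB6 probe had levels of 9.28 and 9.65 in sparse cells and of 8.96 and 9.21 in confluent cells. Its siRNA differences were 0.37 and 0.25, and its density differences -0.32 and -0.44. The second TUBB6 probe, the dimmest of the detected tubulin probes, did not keep this order, as its highest level of 7.80 was in confluent cells with hCdc73 siRNA, against 7.19, 7.50 and 6.95 on the other arrays. By that probe the siRNA difference in confluent cells was 0.85 and the density difference with hCdc73 siRNA was 0.30, opposite to the brighter probe. With median scaling the confluent siRNA difference of the brighter TUBB6 probe turned to -0.21 and that of TUBB3 to -0.12, both above the median of all genes.

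TUBB2B, a beta tubulin known from developing neurons, was the one detected isotype that was higher in confluent cells. Its levels were 11.45 (control) and 11.45 (hCdc73) when sparse and 11.90 and 11.86 when confluent. The siRNAs differed by 0.0062 in sparse and -0.047 in confluent cells, so the arrays again formed 2 pairs by density. The density difference was 0.46 with control siRNA and 0.40 with hCdc73 siRNA, under 1.5-fold and within 2 probe SDs, and the additive effect of 0.43 had a limma adjusted p of 0.401. With median scaling the difference with hCdc73 siRNA was 0.072, still above the median of all genes of -0.25.

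**Figure D2:**
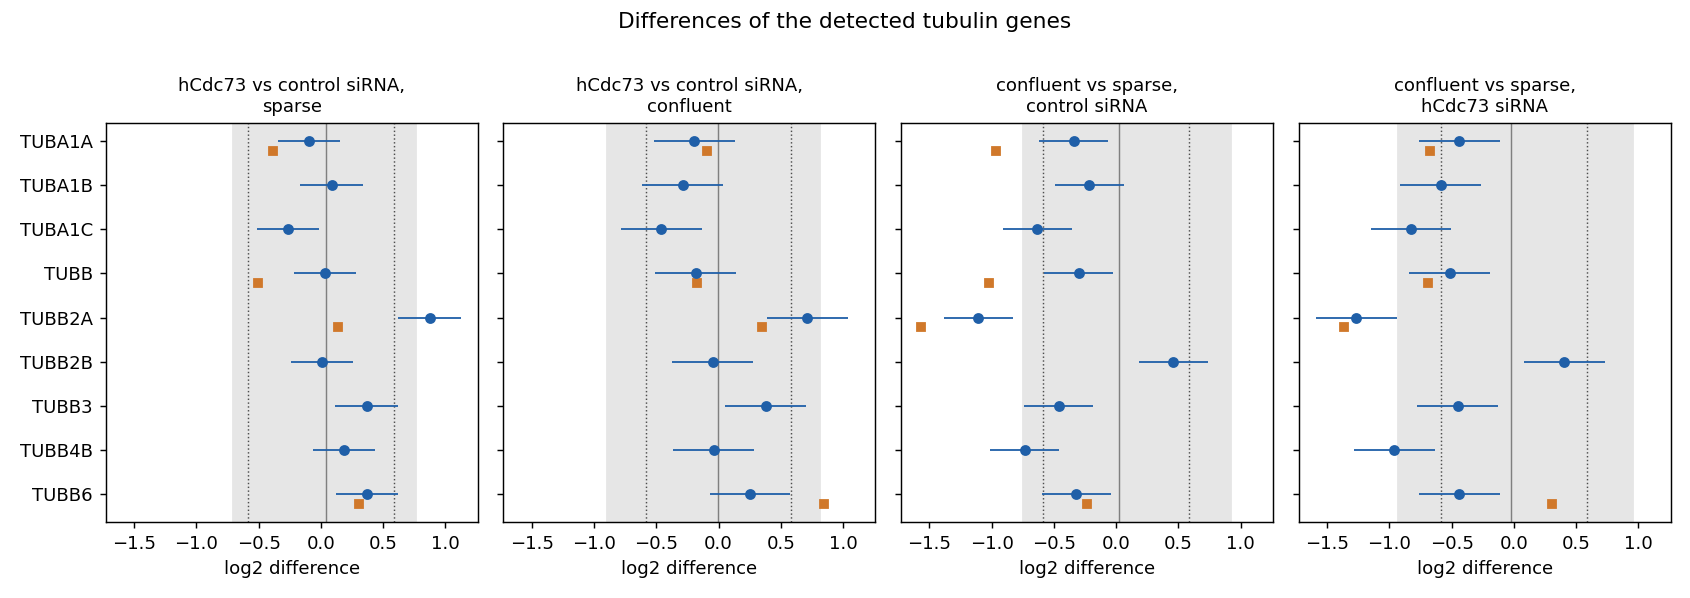
Log2 difference (x axis) of the 9 detected tubulin genes in the 4 comparisons. Circles are the brighter or only probe with 1 probe SD as the bar, squares are second probes, dotted lines mark 1.5-fold, and the grey band runs from the 5th to the 95th percentile of all measured genes with their median as a line. Of the circles, TUBB2A lies below the band in both density panels, and TUBB4B does so with hCdc73 siRNA. The second TUBB2A probe lies below it in both density panels, and those of TUBA1A and TUBB with control siRNA. TUBB2B is the one gene on the higher side in both density panels, and the second TUBB6 probe is there with hCdc73 siRNA only.

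Differences between the siRNAs were small in most tubulin genes. In sparse cells 7 of 9 were higher with hCdc73 siRNA and 2 lower, with a median of 0.085 (all genes 0.041), where 53.9% of 10182 measured genes were higher and 46.1% lower. Past 1.5-fold 1 was higher and none lower, against 9.43% and 7.67% of genes. In confluent cells 3 were higher and 6 lower, with a median of -0.047 (all genes -0.0024), where 49.7% of 10497 genes were higher and 50.2% lower. Past 1.5-fold 1 was higher and none lower, against 11.3% and 13.3% of genes. With median scaling the genes past 1.5-fold in confluent cells split into 282 higher and 3727 lower in place of 1185 and 1392. Of the tubulin genes TUBA1C alone, at -0.69, then passed 1.5-fold. By any amount 1 was higher and 8 lower, but the median of all genes was then -0.40. The tubulin median of -0.32 lay above it. No tubulin gene was called for siRNA in the additive fit by limma, where 1.75% of all genes were called higher and 2.37% lower, and 1 of the 9, TUBB2A, had an unadjusted p under 0.05. The difference of the siRNA effects, confluent minus sparse, ranged from -0.37 for TUBA1B to 0.011 for TUBB3, with a median of -0.16 against -0.039 over 9047 genes.

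TUBB2A and TUBB2B lie on chromosome 6 with no other protein-coding gene between them in the RefSeq table, and they differed in opposite directions with density. The 250 bases before their start sites are shown so that the paralogs can be compared with each other and with TUBB4B, on chromosome 9, which was lower in confluent cells like TUBB2A. The sequences are those of RefSeq (GRCh38.p14), read 5′ to 3′ on the strand of the gene. Capitals mark matches on either strand. The CCAAT box was searched with the letters of its name. The GC box, which binds SP1, was searched as GGGCGG. The TATA box was searched as TATAAA. The motif of TEAD factors, the DNA-binding partners of YAP, was searched as GGAATG. The E-box was searched as CACGTG. Part of the heat shock element was searched as GAANNTTC. The matches shown do not overlap.
TUBB2A, chr6:3157545-3157794, minus strand: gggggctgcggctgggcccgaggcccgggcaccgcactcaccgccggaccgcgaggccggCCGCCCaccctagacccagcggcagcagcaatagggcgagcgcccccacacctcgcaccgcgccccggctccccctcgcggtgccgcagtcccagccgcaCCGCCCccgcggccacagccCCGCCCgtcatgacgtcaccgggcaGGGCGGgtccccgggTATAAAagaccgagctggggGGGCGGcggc
TUBB2B, chr6:3227654-3227903, minus strand: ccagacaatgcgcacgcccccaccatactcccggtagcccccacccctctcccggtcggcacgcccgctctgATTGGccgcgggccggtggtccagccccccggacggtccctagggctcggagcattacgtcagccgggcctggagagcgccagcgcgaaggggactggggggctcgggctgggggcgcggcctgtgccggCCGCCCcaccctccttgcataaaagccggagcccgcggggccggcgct
TUBB4B, chr9:137241037-137241286, plus strand: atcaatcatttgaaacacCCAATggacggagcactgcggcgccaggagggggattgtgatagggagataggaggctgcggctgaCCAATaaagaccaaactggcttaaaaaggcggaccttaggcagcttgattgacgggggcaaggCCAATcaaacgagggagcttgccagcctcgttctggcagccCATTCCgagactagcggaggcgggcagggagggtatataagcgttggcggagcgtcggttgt
The TUBB2A and TUBB2B windows were identical at 138 of 263 aligned positions (52.5%), against 46.0% between TUBB2A and TUBB4B. G and C made up 79.2% of the TUBB2A window, 75.2% of TUBB2B and 56.8% of TUBB4B. The identity of unrelated windows of like composition was not measured.

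The TUBB2A window held 5 GC boxes and a TATA box that begins 30 bases before the start site. TUBB2B had 1 CCAAT box and 1 GC box there. TUBB4B had 3 CCAAT boxes, a TEAD motif 62 bases before the start and no GC box. All 10 tubulin genes had a listed promoter. Matches were counted in 1 window a gene, at the annotated gene start or else the first listed. A CCAAT box was found in 5 (32.0% of 35116 promoters), a GC box in 5 (42.6%) and a TEAD motif in 2, TUBB4B and TUBB6 (11.9%). The letters TATAAA were found in 1, TUBB2A (10.7%), the GAANNTTC motif in 1, TUBA1C (5.8%), and an E-box in none (6.3%). Variants of the TATA box were not searched, so the stretch tatataag near the end of the TUBB4B window was not counted. A match describes the letters only and says nothing of binding.

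The genes that fold tubulin were mostly lower in confluent cells too. Of 19 measured members of the folding list, 16 were lower with control siRNA (median -0.29) and 12 with hCdc73 siRNA (median -0.16), with 3 and 4 at least 1.5-fold lower and none higher, beside the backgrounds given for the isotypes. In the additive fit 1 of 19 passed for density, the chaperonin subunit CCT5, which fell by 0.82 (limma adjusted p = 0.0459). CCT5 was at -0.29 with control and -1.35 with hCdc73 siRNA. CCT6A, another chaperonin subunit, was the one member called for siRNA, where it fell by 1.19 (limma adjusted p = 0.00199), with -0.85 in sparse and -1.54 in confluent cells. For these calls the shares over all genes were 3.1% lower and 4.99% higher for density, and 2.37% lower and 1.75% higher for siRNA. CCT7 was at -0.47 and -0.94 for density, and the prefoldin subunit PFDN6 at -0.77 and 0.44, with an siRNA difference of 1.04 in confluent cells.

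Among other tubulins, 6 of 12 were measured. In confluent against sparse cells 3 were higher and 3 lower with control siRNA (median -0.19). With hCdc73 siRNA 2 were higher and 4 lower (median -0.28). Of all genes 48% (control) and 51.8% (hCdc73) were lower. TUBG1, the gamma tubulin that nucleates microtubules, was at -0.58 (control) and -0.95 (hCdc73) with confluence, with a limma adjusted p of 0.0685 for the additive effect. TUBA3D, an alpha tubulin known mainly from testis, fell by 0.91 in the additive fit (limma adjusted p = 0.0224). TUBD1 and TUBE1, the delta and epsilon tubulins of centrioles, had density differences of opposite sign with the siRNAs, at -0.56 and 0.56 for TUBD1 and at 0.19 and -0.27 for TUBE1.

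The other microtubule lists had medians on both sides of 0. Enzymes that modify tubulin, listed with the autoregulation factor TTC5, had 11 of 16 members higher with control siRNA (median 0.35, 4 at least 1.5-fold higher) and 8 of 15 with hCdc73 siRNA (median 0.035). Over all measured genes 51.9% were higher and 13.3% at least 1.5-fold higher with control siRNA, and 48.1% were higher with hCdc73 siRNA. TTLL5, a glutamylase, was at 0.88 and -0.22, TTLL12 at -0.47 and -1.04, and SVBP, the partner of the detyrosinating vasohibins, at -0.081 and 0.70. VASH2, one of these vasohibins, was detected on the control confluent array only and was at least 1.14-fold lower there with hCdc73 siRNA. Genes of microtubule nucleation had medians of -0.16 and -0.14, and the augmin subunit HAUS2 was at 0.81 and 0.65, TUBGCP4 of the gamma tubulin ring complex at -0.0052 and -0.75. HAUS3 and NEDD1 were at or under the detection limit on at least 1 array. No gene of either list was called in the additive fit for density or siRNA.

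Genes of microtubule dynamics and severing had medians of 0.092 (17 of 23 higher) with control siRNA and -0.16 (8 of 21 higher) with hCdc73 siRNA, where 51.9% and 48.1% of all genes were higher. None was called for density, and 2 of 23 were called for siRNA, where 1.75% of all genes were called higher. Both were higher and both are known as neuronal microtubule-associated proteins. MAPT, which codes for tau, rose by 0.95 (limma adjusted p = 0.0233) and was at 1.08 in sparse and 0.83 in confluent cells. MAP1A rose by 0.89 (limma adjusted p = 0.0411) and was at 0.53 and 1.26. Their signals were low, between 128 and 280, against detection limits of 103 to 123. CLASP2, a plus-end protein, was at least 2.13-fold lower in confluent cells with hCdc73 siRNA, where it was not detected, and MAP2 was not detected in sparse control cells. The non-muscle actins ACTB and ACTG1 were at -0.29 and 0.13 for density with control siRNA and at -0.84 and -0.46 with hCdc73 siRNA.

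**Figure D3:**
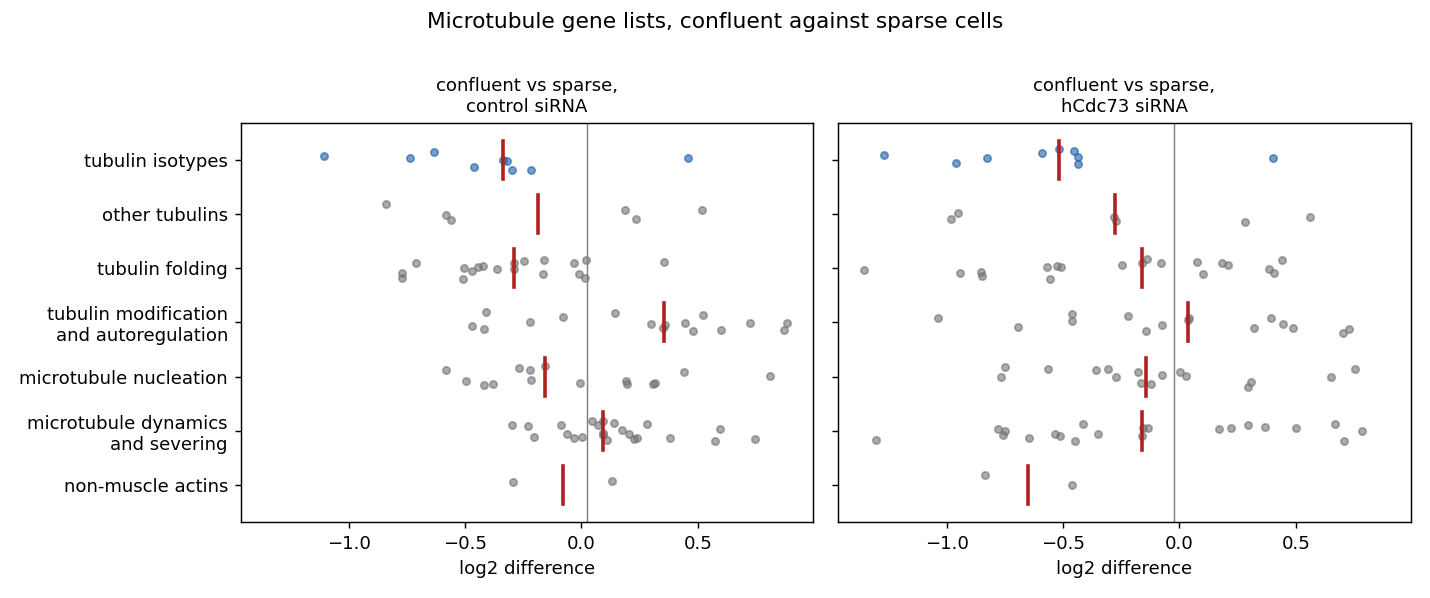
Log2 difference of confluent against sparse cells (x axis) for each measured gene of the tubulin isotypes (blue) and of 6 related lists (grey), with control siRNA on the left and hCdc73 siRNA on the right. Red bars are list medians and the vertical line is the median of all measured genes. Isotypes and folding genes lie mostly on the lower side, and the modification list lies mostly on the higher side with control siRNA.

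The genes whose profile over the 4 arrays was nearest to TUBB2A, by the Euclidean distance of log2 levels centred on each gene's mean among 9038 candidates, were HSPA4 (distance 0.21), a chaperone of the HSP110 family, INPP4B (0.22), RCC1L (0.28), CPLX1 (0.30) and the glucose transporter SLC2A3 (0.31). HSPA4 was at -1.07 and -1.03 with confluence and at 0.64 and 0.68 with hCdc73 siRNA. The genes nearest to the median profile of the 9 isotypes were UBAP2 (distance 0.036), ABCB6 (0.046), TCP1 (0.050), DLAT (0.050) and GIT1 (0.053). TCP1 is the first subunit of the chaperonin CCT and a member of the folding list, and it was at -0.36 (control) and -0.53 (hCdc73) with confluence. The likeness rests on 4 arrays.

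**Figure D4:**
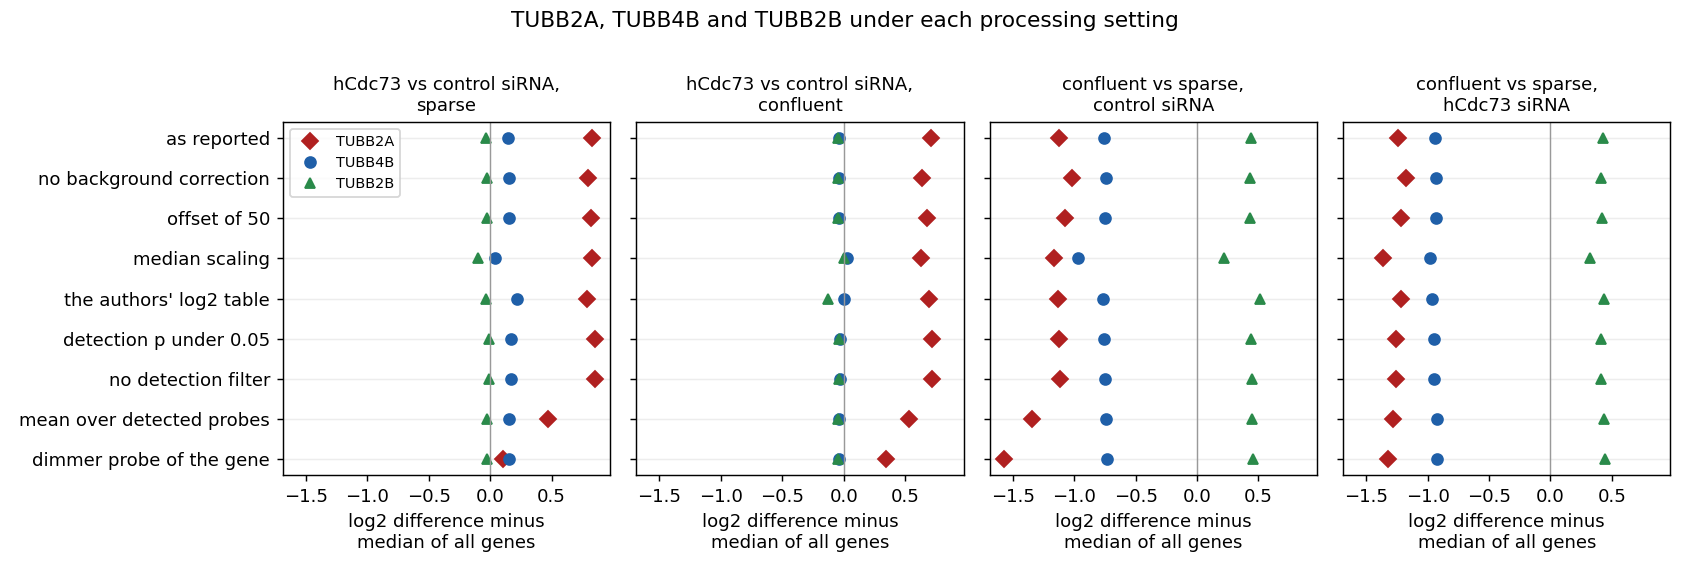
Log2 difference minus the median of all measured genes (x axis) for TUBB2A, TUBB4B and TUBB2B in the 4 comparisons, under each processing setting (rows). With confluence TUBB2A and TUBB4B stay below and TUBB2B above the median of all genes in every setting shown. The siRNA difference of TUBB2A is smallest with its dimmer probe.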

How the data were processed

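The authors deposited 2 tables of the same 4 Illumina bead arrays. The first holds probe intensity on a linear scale, non-normalized per the file headers and with background left in, and the second log2 values. The software that made them is not given in the sources used here. The log2 values that the authors deposited have a median of 6.42 on every array and correlate with log2 intensity at 0.998 to 1.00, so their scale and direction are settled.

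Of 49576 probes 48803 had values, and the platform annotation names 1 gene for 28098 of these, several for 13 and none here for 20692. Symbols were updated through RefSeq by Entrez number. Background was corrected by normexp (limma 3.58.1, R 4.3.3) with 453 olfactory receptor probes as negative controls, since the table has no detection p-values. Quantile normalization followed, after an offset of 16, and then log2. Each gene was read from its probe of highest mean and was measured when detected on at least 1 array of a comparison, or on any array in the additive limma fit, whose p-values were adjusted by the Benjamini-Hochberg method over all genes. Bounds were taken against the detection limit. Calculations were tested on simulated data. Alternatives changed background, offset, scaling, table, detection limit and probe rule. The dimmer-probe alternative was chosen after seeing the data, and the tubulin genes, gene lists and naming rule (all isotypes, and up to 4 members of each other list with the largest difference) were chosen with earlier results of these data known. The number of arrays limits the precision.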

Additional observations from a re-analysis of the deposited data

Results flagged for a closer look

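Some tubulin values had opposite signs under the same contrast on the arrays of the 2 densities or the 2 siRNAs. With 1 array per group these differences were not tested. The siRNA effect, confluent minus sparse, was -0.37 for TUBA1B (0.085 in sparse and -0.29 in confluent cells), -0.22 for TUBB (0.033 and -0.18), -0.054 for TUBB2B (0.0062 and -0.047) and -0.22 for TUBB4B (0.19 and -0.038). Each of these siRNA differences was smaller than the probe SD. Of 9047 genes, 26.0% had a confluent minus sparse value at least as low as that of TUBA1B, and 48.9% one as low as that of TUBB2B. The second TUBB probe was lower with hCdc73 siRNA at both densities, at -0.50 and -0.17. The second TUBB6 probe had a density effect that differed by 0.54 between hCdc73 and control siRNA (0.30 and -0.24), while the brighter probe was lower in confluent cells with both.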

How the results depend on the processing

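No paired analysis was possible because each group has 1 array, and for the same reason no array could be left out with a fit remaining. The count of isotypes with both sparse arrays above both confluent ones was 7 to 9 over the settings run, where 19.5% to 24.9% of all genes had that order, and 1 isotype had the opposite order, as did 18.1% to 21.6% of all genes. The median density difference with control siRNA was -0.63 both with probes averaged and with the dimmer probes, and 5 isotypes then passed 1.5-fold. For hCdc73 siRNA, averaging the probes left 0 isotypes past 1.5-fold at either density, and the dimmer probes left 0 in sparse cells and 1 in confluent cells, which was TUBB6. In the additive fit for density, the isotypes called were 1 with median scaling (TUBB2A) and 0 without a detection filter, where limma called 0 of 18473 genes. For siRNA, 1 isotype, TUBB2A, had a limma adjusted p of 0.0146 without background correction, of 0.0184 in the authors' log2 table and of 0.0307 when the offset was 50, and its adjusted p was 0.0962 to 0.830 in the other alternatives. Genes called overall were 443 for siRNA and 871 for density, and 138 and 224 with median scaling. Of the single-gene values under the alternatives, 334 moved by less than the probe SD, 26 moved by more, and none past 1.5-fold reversed. Many of the 334 could not move. A changed detection limit leaves the difference of a gene as it was, and the probe rules do so for genes with a single probe. Without background correction, 368 genes in sparse cells were at least 1.5-fold higher with hCdc73 siRNA and 367 lower, in place of 960 and 781, and in confluent cells 613 and 726 in place of 1185 and 1392. For density these counts were 717 and 511 in place of 1367 and 977 (control siRNA), and 861 and 858 in place of 1515 and 1567 (hCdc73 siRNA). In the authors' log2 table they were 451 and 418, 721 and 865, 807 and 604, and 969 and 973 in the same order, and an offset of 50 gave 593 higher in sparse cells.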

Other observations

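Synaptophysin (SYP), a protein of synaptic vesicles, was detected with hCdc73 siRNA only, at signals of 128 (sparse) and 161 (confluent), against 85.1 and 91.3 with control siRNA. Against the detection limit it was at least 1.16-fold higher in sparse and at least 2.39-fold higher in confluent cells. The log2 siRNA difference of the adhesion molecule NCAM1 was 0.44 and 0.82 and NEFL at 0.56 and 0.47, while SNAP25, another synaptic protein, was at -0.83 and -0.30. Of the kidney epithelial markers, LHX1 was at 0.30 and -0.74, WT1 at 0.026 and -0.17, and CDH1 was detected in confluent control cells only. Of the fibroblast and haematopoietic markers, PDGFRA was at 0.13 and 0.93 and COL1A1 at -0.56 and 0.068. LUM was at 0.62 in confluent cells and was not detected in sparse control cells.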
